A study of Mus musculus with 2 samples.

Results

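Mitochondrial fatty acid oxidation was followed through 9 genes in fibro-adipogenic progenitors (FAPs), which are stromal cells of muscle with the capacity to become adipocytes. The genes were taken by name, as Cpt1a, Cpt2, Acadm, Acadl, Acadvl, Hadha, Hadhb, Acaa2 and Pdk4, from the 44291 genes measured, and all 9 were found once. None of them encodes a peroxisomal enzyme, and Pdk4 encodes a regulator of glucose oxidation and not an enzyme of the pathway. Primary FAPs were wild type and came from mouse hind-limb muscle by collagenase digestion and flow sorting. The methods name C57BL/6 mice, and whether animals were pooled is not given in the sources used here. They received platelet-rich plasma (PRP) or vehicle as control, and both cultures were then in adipogenic induction medium with IBMX, dexamethasone and insulin, so that undifferentiated cells were not part of the comparison. The labels name the treatment PRP, whereas the text of the study speaks of exosomes from PRP, and the library is called PRP here as it is labelled. With 1 library per group, 2 in all, no difference could be set against replicates and p-values are not given. Paired values below give the PRP library first and the control library second.

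Fatty acids are broken down in mitochondria after they have been activated to acyl-CoA. The carnitine shuttle carries the acyl group across the mitochondrial membranes, with Cpt1 on the outer membrane as the step that malonyl-CoA inhibits. In the matrix each turn of the cycle is opened by an acyl-CoA dehydrogenase suited to the chain length, and is followed by hydration, a second oxidation and thiolysis to acetyl-CoA. Many of these genes are known targets of the PPAR nuclear receptors, which also drive adipocyte formation.

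The read total by which FPKM was scaled, recovered from the values themselves, was 40120843 with PRP and 34139741 in the control. Levels are given as FPKM, here the reads per kilobase of exon scaled to the depth of the library, with both mates of a pair counted. All 9 genes came out as whole reads, from 311 to 4858 with PRP and from 330 to 4846 in the control. A ratio is PRP FPKM divided by control FPKM, with a 95% interval that covers counting error only. A log2 fold change is log2(PRP FPKM + 1) minus log2(control FPKM + 1), which understates the difference of genes with low values. The mean of both libraries reached 1 FPKM for 13401 genes, and all 9 of the oxidation genes were among them.

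Several enzymes of the oxidation cycle were lower in the PRP library beyond counting error, and the kinase gene Pdk4 was higher. The log2 fold change was below 0 for 8 of the 9 genes, against 49.1% of all genes tested, and above 0 for Pdk4, against 50.9% of all genes. The median over the 9 genes was -0.22, and that of all genes was 0.01. For 4 genes (Acadvl, Acaa2, Acadm and Hadha) the counting interval of the ratio lay wholly below 1, as it did for 26.1% of the 12369 genes that had an interval. For Pdk4 it lay wholly above 1, as it did for 26.1% of those genes. For Cpt1a, Cpt2, Acadl and Hadhb the interval included 1. No difference was large: 0 of the 9 genes differed at least 2-fold, against 2.83% of all genes, and 0 differed at least 1.5-fold, against 10.7% of all genes. Fewer cells that express a gene and less of its RNA in each cell cannot be told apart in such bulk libraries.

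**Figure D1:**
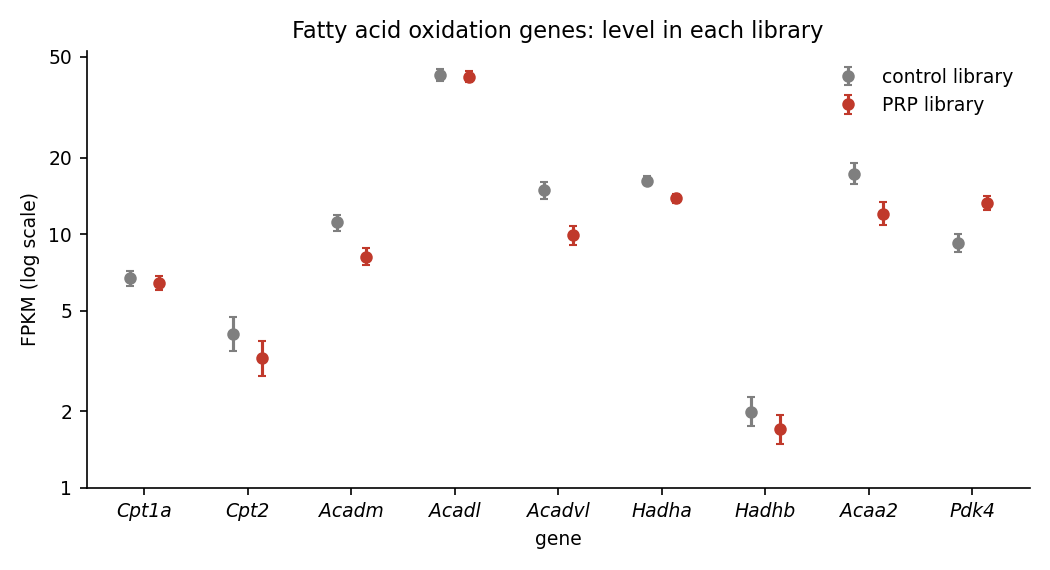
Level of the 9 fatty acid oxidation genes in the control (grey) and PRP (red) libraries, in FPKM on a log axis, with exact Poisson 95% intervals of the count as bars. Acadl is at the top in both libraries (41.9 and 42.4 FPKM), Hadhb is at the bottom (1.70 and 2.00 FPKM), and Pdk4 alone has its PRP point above its control point.

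The carnitine shuttle genes lay near the median level of all genes tested, which was 5.39 FPKM with PRP and 5.37 FPKM in the control, Cpt1a above it and Cpt2 below. Cpt1a (ENSMUSG00000024900, GRCm38 chromosome 19, 3322334 to 3385733, plus strand) encodes the carnitine palmitoyltransferase of the outer mitochondrial membrane that most tissues other than muscle use. It had 6.43 FPKM with PRP against 6.70 FPKM in the control, from 1970 and 1749 reads. The ratio was 0.958 (0.874 to 1.05), so no difference was detectable at this depth. Cpt2 (ENSMUSG00000028607, chromosome 4, 107903981 to 107923610, minus strand), whose product releases the acyl group to CoA on the matrix side, had 3.24 FPKM with PRP against 4.04 FPKM in the control. With 311 and 330 reads its interval was wide, and the ratio of 0.802 (0.640 to 1.004) just included 1. After rescaling of both libraries to a common sum of FPKM the interval ended at 0.993. Cpt1a stood at 1.98 times the level of Cpt2 with PRP and at 1.66 times in the control, a quotient that depends on the exon length used. By the longest coding transcript Cpt1a had 11.4 and 11.9 FPKM and Cpt2 had 3.27 and 4.08 FPKM.

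Of the other Cpt1 genes, Cpt1c, the form known from neurons, had 3.17 FPKM with PRP against 4.16 FPKM in the control (ratio 0.762, 0.659 to 0.882). Cpt1b, the muscle form, had 0.769 and 0.929 FPKM, fell short of a mean of 1 FPKM and shares 81.4% of its exonic bases with another annotated gene, so its value is uncertain. Cpt1a therefore held 62.0% of the summed Cpt1 FPKM with PRP against 56.8% in the control. Slc25a20, the carnitine-acylcarnitine translocase of the inner membrane, had 2.71 and 2.95 FPKM (ratio 0.917, 0.768 to 1.10).

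The acyl-CoA dehydrogenases differed among themselves. Acadvl (ENSMUSG00000018574, chromosome 11, 70010183 to 70015411, minus strand), the enzyme for very long chains, had 9.90 FPKM with PRP against 14.9 FPKM in the control, from 1067 and 1366 reads. The ratio of 0.665 (0.592 to 0.745) was the lowest of the 9 genes, and its log2 fold change of -0.54 was at or above that of 5.54% of all genes. Taken without the pseudocount this ratio lay just past 1.5-fold. Acadm (ENSMUSG00000062908, chromosome 3, 153922357 to 153944632, minus strand), the enzyme for medium chains, had 8.16 and 11.1 FPKM, from 1281 and 1487 reads, and a ratio of 0.733 (0.659 to 0.816). Both were lower in the PRP library beyond counting error.

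Acadl (ENSMUSG00000026003, chromosome 1, 66830839 to 66863277, minus strand), the enzyme for long chains, stood apart from them. Its level was 41.9 FPKM with PRP against 42.4 FPKM in the control, from 3367 and 2902 reads, which made it the most abundant of the 9 genes in both. The ratio was 0.987 (0.920 to 1.06), an interval that does not overlap those of Acadvl and Acadm. Acadl was thus at 4.23 times the level of Acadvl with PRP and at 2.85 times in the control, a quotient that does not depend on how the libraries are scaled. Acads, the enzyme for short chains, had 3.46 and 3.42 FPKM (ratio 1.01, 0.798 to 1.28). Over these 4 dehydrogenases the summed level was 63.4 FPKM with PRP against 71.8 FPKM in the control, and Acadl held 66.0% and 59.0% of it.

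**Figure D2:**
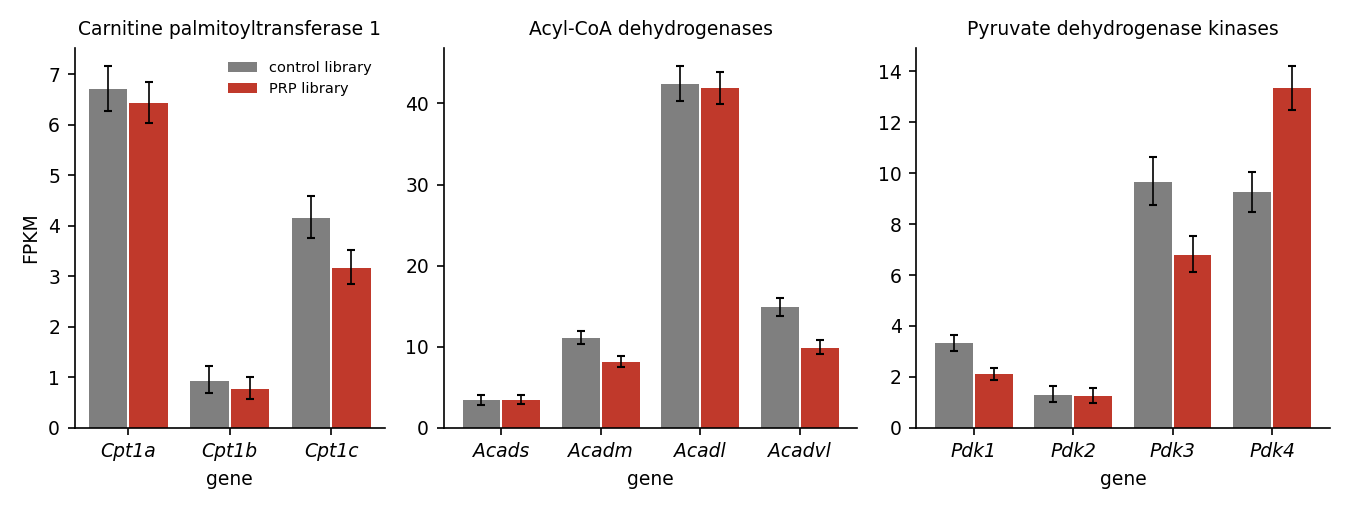
FPKM of the Cpt1 genes, of the 4 acyl-CoA dehydrogenases and of the 4 pyruvate dehydrogenase kinases in the control (grey) and PRP (red) libraries, on axes that start at 0, with exact Poisson 95% intervals of the count as bars. Acadl bars are level while Acadm and Acadvl are lower in the PRP library, and Pdk4 is higher while Pdk1 and Pdk3 are lower.

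The value of Acadvl carries a limit. Of its 2686 exonic bases, 1151 (42.9%) are also exons of Dvl2 on the opposite strand, and the sources used here do not state whether reads were counted by strand. Dvl2 had 5.62 and 6.39 FPKM (ratio 0.879, 0.790 to 0.977), and its part in the Acadvl value was not tested. The 300 bases around the Acadvl start in RefSeq (chr11:70015379-70015678 of GRCm38.p6, minus strand, 250 bases before and 50 from the start) are shown because this gene had the lowest ratio. The capitals mark AGGTCA, the core letters bound by nuclear receptors such as PPAR with RXR and ERR, which begins 87 bases before the start.
Acadvl: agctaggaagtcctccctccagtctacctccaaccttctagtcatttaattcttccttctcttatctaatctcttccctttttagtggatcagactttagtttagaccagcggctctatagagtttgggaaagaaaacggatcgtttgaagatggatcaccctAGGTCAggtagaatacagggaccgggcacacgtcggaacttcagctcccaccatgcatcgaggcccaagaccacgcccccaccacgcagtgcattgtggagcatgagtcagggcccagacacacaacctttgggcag

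A RefSeq window of this kind was at hand for 8 of the 9 genes, all but Acaa2. AGGTCA was found on either strand in 3 of these 8 (Acadvl, Acadm and Cpt1a) and in 16.3% of all 32851 windows searched. A pair of AGGTCA cores in the same orientation 1 base apart, the arrangement that PPAR with RXR prefers and which contains the core itself, was in 0 of the 8 and in 0.0396% of all windows. These matches are a description of the letters in a short window. The 3 genes with the motif included both a low ratio (Acadvl and Acadm) and a ratio near 1 (Cpt1a).

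Hadha and Hadhb encode the alpha and beta subunits of the mitochondrial trifunctional protein, which carries out the steps after the dehydrogenase for long chains. They lie head to head on chromosome 5, Hadha (ENSMUSG00000025745) at 30118304 to 30155162 on the minus strand and Hadhb (ENSMUSG00000059447) at 30155248 to 30184593 on the plus strand. Their RefSeq starts are 273 bases apart, and the windows around them share 228 bases. The window of Hadhb (chr5:30155003-30155302, plus strand) is shown because it reaches from the beginning of Hadhb into Hadha as annotated in GENCODE M21. Its capitals mark GGGCGG, the GC box letters, and the reverse complement of it, with 4 matches in all.
Hadhb: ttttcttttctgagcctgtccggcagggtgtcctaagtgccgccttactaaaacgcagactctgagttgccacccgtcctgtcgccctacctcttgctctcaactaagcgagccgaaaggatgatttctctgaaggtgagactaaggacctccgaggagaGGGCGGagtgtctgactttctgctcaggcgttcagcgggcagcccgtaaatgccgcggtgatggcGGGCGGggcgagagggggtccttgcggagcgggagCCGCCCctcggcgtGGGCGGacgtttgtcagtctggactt

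GGGCGG was found in 5 of the 8 windows (Acadl, Cpt1a, Cpt2, Hadha and Hadhb) and in 35.7% of all windows. The only match of Hadha, 188 bases before its start, is the same stretch as the Hadhb match 90 bases before the Hadhb start. It was absent as letters from those of Acadm, Acadvl and Pdk4.

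Hadha had 13.9 FPKM with PRP against 16.3 FPKM in the control, from 4858 and 4846 reads. The ratio was 0.853 (0.806 to 0.903), a small difference beyond counting error, in the gene with the most reads of the 9. Hadhb had 1.70 and 2.00 FPKM, from 450 reads in each library, and a ratio of 0.851 (0.704 to 1.03). The ratios of both subunits were thus nearly equal, and the interval of Hadhb, with fewer reads, included 1. Hadha stood at 8.16 times the level of Hadhb with PRP and at 8.14 times in the control.

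The gap in level between both subunits is uncertain. The summed exons used for FPKM were 8730 bases for Hadha and 6595 bases for Hadhb, whereas their longest coding transcripts are 4017 and 2048 bases. In addition, 62.4% of the windows of 50 bases along the Hadhb transcript also occur in other annotated genes, nearly all of them in the pseudogene Gm13910 (61.5%), so that reads can fall to either. Gm13910 was not analysed here. Gm9108, a second copy with 15.4% of the windows, was listed at 0 in both libraries. For the other genes this share was 24.0% for Acadvl, all of it with Dvl2, 4.10% for Acadm, 1.43% for Pdk4 and 0.655% for Hadha. No window of Cpt1a, Cpt2, Acadl or Acaa2 was shared.

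Acaa2 (ENSMUSG00000036880, chromosome 18, 74779197 to 74806208, plus strand) encodes the mitochondrial thiolase that splits off acetyl-CoA. Its level was 12.1 FPKM with PRP against 17.3 FPKM in the control, from 733 and 897 reads. The ratio of 0.695 (0.604 to 0.800) was the second lowest of the 9 genes. Hadh, the dehydrogenase that acts just before the thiolase on shorter chains, had 6.42 and 8.03 FPKM (ratio 0.800, 0.717 to 0.892). Echs1, the enoyl-CoA hydratase, had 1.65 and 1.94 FPKM (ratio 0.848, 0.715 to 1.01), which included 1.

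**Figure D3:**
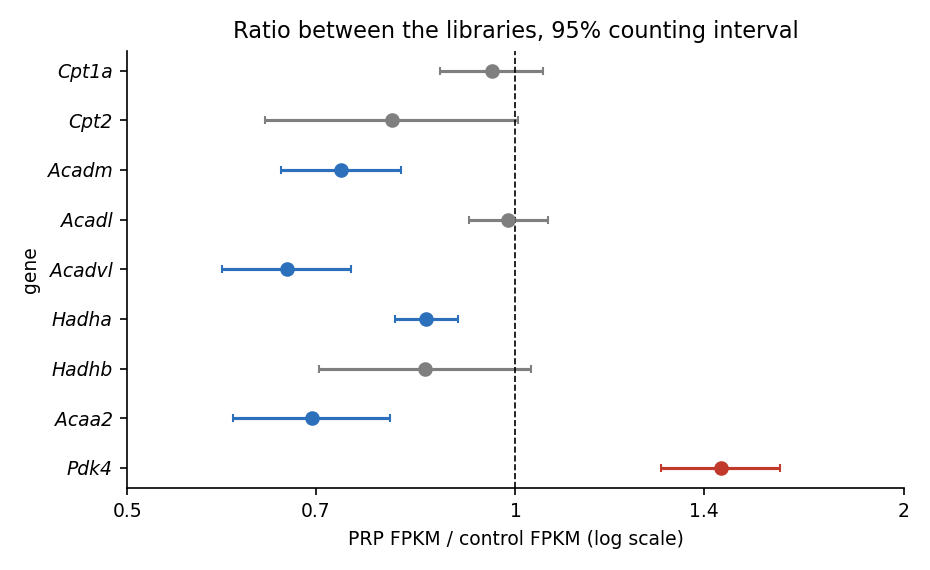
Ratio of PRP FPKM to control FPKM for the 9 genes on a log axis, with exact 95% counting intervals as bars; the dashed line marks no difference. Blue intervals lie below 1 (Acadm, Acadvl, Hadha, Acaa2), the red interval of Pdk4 lies above 1 at 1.30 to 1.60, and grey intervals include 1.

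Pdk4 (ENSMUSG00000019577, chromosome 6, 5483351 to 5496309, minus strand) encodes a kinase that switches off the pyruvate dehydrogenase complex and is known to be induced when cells turn to fatty acids as fuel. It had 13.3 FPKM with PRP against 9.24 FPKM in the control, from 1878 and 1108 reads. The ratio was 1.44 (1.30 to 1.60), and its log2 fold change of 0.48 was at or below that of 8.72% of all genes. Among the 9 genes Pdk4 moved from rank 6 in the control library to rank 3 in the PRP library. The window around its start (chr6:5496229-5496528, minus strand) is shown because it was the gene that was higher. The capitals mark the reverse complement of CCAAT, the letters of the CCAAT box, 131 bases before the start; CCAAT was in 2 of the 8 windows (Pdk4 and Cpt1a) and in 37.4% of all windows.
Pdk4: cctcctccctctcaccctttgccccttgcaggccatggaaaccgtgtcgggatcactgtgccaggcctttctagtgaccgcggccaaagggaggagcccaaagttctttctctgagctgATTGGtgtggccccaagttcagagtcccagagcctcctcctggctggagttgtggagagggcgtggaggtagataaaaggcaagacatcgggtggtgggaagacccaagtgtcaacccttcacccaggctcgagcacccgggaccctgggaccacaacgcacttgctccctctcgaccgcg

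The 4 pyruvate dehydrogenase kinases summed to nearly the same level, at 23.5 FPKM in both libraries, but were made up differently. Pdk4 held 56.8% of the sum with PRP against 39.3% in the control. Pdk3 had 6.79 and 9.66 FPKM (ratio 0.703, 0.608 to 0.812), and its share was 28.9% against 41.1%. Pdk1 had 2.11 and 3.33 FPKM (ratio 0.634, 0.548 to 0.732). Pdk2 had 1.25 and 1.30 FPKM (ratio 0.960, 0.687 to 1.34). Pdk3 was thus the most abundant kinase in the control library by a margin within counting error, and Pdk4 the most abundant in the PRP library by a margin beyond it.

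Across the wider pyruvate dehydrogenase list of 12 genes, which holds the complex, its kinases and phosphatases and the pyruvate carrier but not Pdk4, 9 were lower and 3 were higher, with a median log2 fold change of -0.12. Of all genes tested 49.1% were lower. The interval lay below 1 for 5 genes and above 1 for 3, against 26.1% of all genes in each direction. Those above 1 were the complex genes Pdha1 (ratio 1.06, 1.02 to 1.11) and Pdhb (1.10, 1.03 to 1.18) and the carrier gene Mpc2 (1.28, 1.02 to 1.61). Beside Pdk1 and Pdk3, the pyruvate carrier gene Mpc1 came next in size of log2 fold change, with 2.80 and 3.84 FPKM (ratio 0.729, 0.565 to 0.941), although 23.1% of its exonic bases are shared with another gene. By the plain ratio the phosphatase gene Pdp1, at 0.929 and 1.46 FPKM, was further from 1 (0.638, 0.475 to 0.854).

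In order of level the 9 genes ran, in the control library, Acadl, Acaa2, Hadha, Acadvl, Acadm, Pdk4, Cpt1a, Cpt2 and Hadhb. The counting intervals of neighbours overlapped for Acaa2 and Hadha and for Hadha and Acadvl, and for no other pair. In the PRP library the order was Acadl, Hadha, Pdk4, Acaa2, Acadvl, Acadm, Cpt1a, Cpt2 and Hadhb, with overlap for Hadha and Pdk4 and for Pdk4 and Acaa2. The order among genes depended on the length used. With reads divided by the longest coding transcript, an alternative chosen after seeing the data, Hadha reached 30.1 and 35.3 FPKM, Acadm took rank 3 in both libraries, and Cpt2 replaced Hadhb as the lowest. Pdk4 then moved from rank 7 to rank 4. The ratios between libraries do not depend on the length, whereas the quotients, sums and shares across genes given here do.

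**Figure D4:**
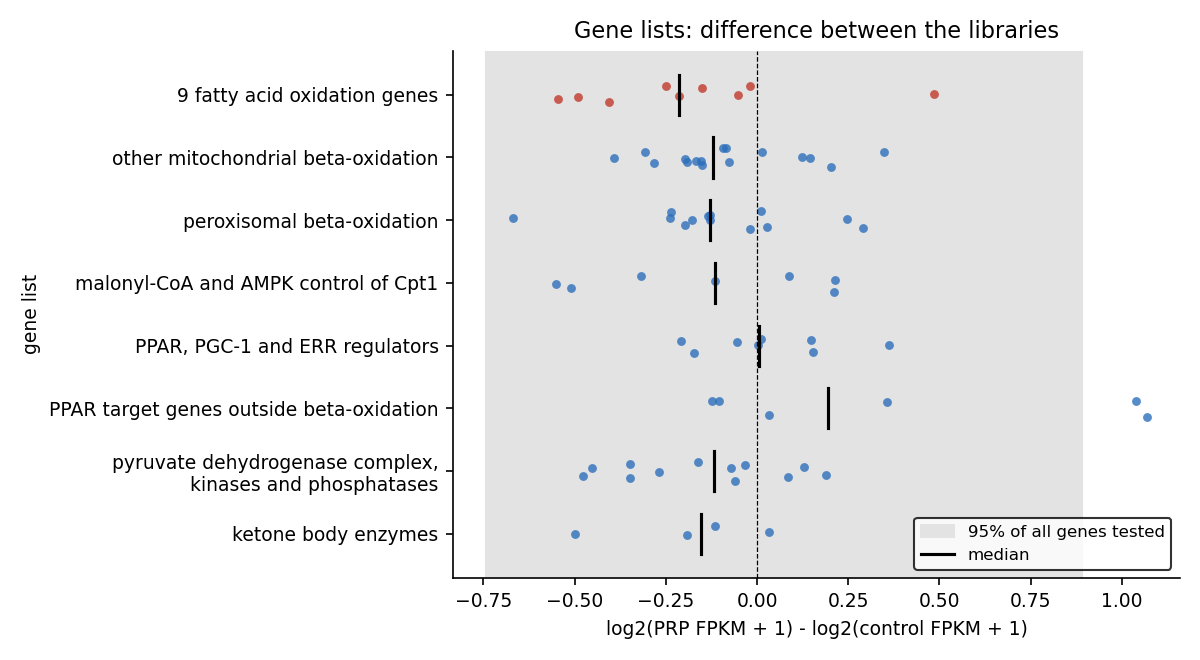
Log2 fold change of each gene with a mean FPKM of at least 1 in the 9 fatty acid oxidation genes (red) and in 7 further lists (blue), with the median of each list as a vertical bar; the grey band holds 95% of all genes, from -0.74 to 0.89. The medians of both beta-oxidation lists lie left of 0 at -0.12 and -0.13, and 2 PPAR target genes lie to the right of the band.

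The other genes of the mitochondrial pathway were more often lower than higher, but not among the most abundant of them. Of 18 listed genes 16 passed the minimum level, with 11 lower and 5 higher, against 49.1% and 50.9% of all genes tested. The median log2 fold change was -0.12. The interval lay below 1 for 6 genes and above 1 for 3, against 26.1% of all genes in each direction, and included 1 for 7. Those above 1 were Eci1 and, named after their values were seen, Etfa and Etfb. Etfa had 28.0 and 25.3 FPKM (ratio 1.11, 1.01 to 1.22). Etfb had 199 and 173 FPKM (ratio 1.15, 1.10 to 1.20), although 58.2% of its exonic bases are shared with other genes. The summed level of the 18 genes was 292 FPKM with PRP against 268 FPKM in the control. At a mean of at least 5 FPKM 6 genes remained, 3 lower and 3 higher, with a median of -0.02. The gene with the largest difference was Crat, carnitine acetyltransferase, with 2.13 and 3.10 FPKM (ratio 0.686, 0.574 to 0.818). Eci1, an isomerase for unsaturated fatty acids, went the other way with 12.5 and 9.61 FPKM (ratio 1.30, 1.13 to 1.49). Cpt1c, given above, was the third.

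The peroxisomal pathway, which shortens very long and branched chains, was described by 19 genes, of which 13 passed. There were 9 lower and 4 higher, against 49.1% and 50.9% of all genes tested, with a median of -0.13. The interval lay below 1 for 6 genes and above 1 for 0, against the same 26.1% of all genes. Scp2, which encodes sterol carrier protein and a peroxisomal thiolase, differed most on the log2 scale among the genes that passed, with 51.6 FPKM with PRP against 82.7 FPKM in the control (ratio 0.624, 0.598 to 0.652). It was the only gene of both beta-oxidation lists past 1.5-fold on that scale. Below the minimum level, and named after their values were seen, the peroxisomal bifunctional enzyme gene Ehhadh had 0.301 and 0.865 FPKM (ratio 0.348, 0.189 to 0.615), and Acad10 of the mitochondrial list had 1.10 and 0.695 FPKM (ratio 1.58, 1.18 to 2.13). Pecr, an enoyl-CoA reductase, had 3.49 and 2.67 FPKM (ratio 1.31, 0.956 to 1.80), and Acot8, a thioesterase, had 2.57 and 2.01 FPKM (ratio 1.28, 0.934 to 1.76), and both intervals included 1.

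Genes that set the inhibition of Cpt1 through malonyl-CoA fell on both sides of no difference. Of 9 listed genes 7 passed, with 4 lower, against 49.1% of all genes tested, and 3 higher. Their median log2 fold change was -0.12, which turned to 0.09 without the minimum. The interval lay below 1 for 3 genes and above 1 for 1, against 26.1% of all genes in each direction, and included 1 for 3. Acaca, the acetyl-CoA carboxylase that makes malonyl-CoA for lipid synthesis, had 3.36 and 5.40 FPKM (ratio 0.623, 0.577 to 0.673). Mlycd, which removes malonyl-CoA, had 0.840 and 1.29 FPKM (ratio 0.650, 0.440 to 0.953). Acacb, the carboxylase at the mitochondrial surface that supplies malonyl-CoA to Cpt1, just missed the minimum level and lay on the other side, with 1.06 and 0.888 FPKM (ratio 1.19, 0.959 to 1.48), an interval that included 1. Prkag1, a regulatory subunit of the kinase AMPK, had 8.04 and 11.9 FPKM (ratio 0.677, 0.587 to 0.781), a value that is uncertain since 43.7% of its exonic bases lie in a gene of the opposite strand. The quotient of Acaca to Cpt1a was 0.523 with PRP against 0.805 in the control.

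The receptors and cofactors known to control these genes were split in sign, and the 3 beyond counting error were higher. Of 12 listed genes 8 passed, with 3 lower and 5 higher, against 49.1% and 50.9% of all genes tested. After rescaling to a common sum 5 were lower, and the median of 0.01 turned to -0.01. The interval lay above 1 for 3 genes, Pparg among them, and below 1 for 0, against 26.1% of all genes in each direction. It included 1 for 2 genes, and 3 had no interval. Ppara, the receptor best known for oxidation genes in liver, was at 0.149 and 0.122 FPKM, from 23 and 16 reads. Ppard had 8.15 and 8.14 FPKM (ratio 1.001, 0.921 to 1.09). Pparg, the adipocyte receptor, had 8.69 and 6.55 FPKM (ratio 1.33, 1.15 to 1.53). Rxra, the shared partner, had 5.05 and 5.99 FPKM, and Lpin1 had 4.63 and 5.34 FPKM, and neither gave whole reads, so that they have no interval.

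PPAR target genes outside beta-oxidation were split, and the largest differences among those that passed the minimum level were upward. Of 12 listed genes 6 passed, with 2 lower and 4 higher, against 49.1% and 50.9% of all genes tested. Their median was 0.19, which was 0.02 without the minimum level. The interval lay below 1 for 1 gene and above 1 for 3, against 26.1% of all genes in each direction, and included 1 for 2. The lipid droplet gene Plin2 had 112 and 54.2 FPKM (ratio 2.07, 1.99 to 2.16) and the mitochondrial thioesterase gene Acot2 had 8.84 and 3.70 FPKM (ratio 2.39, 1.97 to 2.93). Angptl4, a secreted inhibitor of lipoprotein lipase, had 8.26 and 6.23 FPKM (ratio 1.33, 1.16 to 1.51). Acot2 has a close paralogue in Acot1, at 0.223 and 0.135 FPKM, with which it can share reads. Other targets, named after their values were seen, were lower. Fabp3 had 89.5 and 97.6 FPKM (ratio 0.918, 0.852 to 0.988). Below the minimum level, Ucp2 had 0.0856 and 0.314 FPKM, from 24 and 75 reads (ratio 0.272, 0.129 to 0.533). Whether the lists differ was not tested.

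Several measures of the whole libraries moved with these differences. The mitochondrial genome supplied 2.06% of all FPKM with PRP against 3.70% in the control. FAP markers were present, and all 8 of 10 that passed were lower, with a summed level of 465 FPKM with PRP against 729 FPKM in the control. Beside this count and the marker counts that follow, 49.1% of all genes tested were lower and 50.9% were higher. Adipocyte markers summed to 60.1 and 50.5 FPKM over 8 genes, with 5 passing, 1 lower and 4 higher, and Lep, Retn and Cidec all under 1 FPKM. Myogenic markers summed to 43.1 and 27.2 FPKM over 9 genes (Myf5 was not analysed here), with 2 of the 4 that passed higher (Tnnc1 at 21.2 and 8.75 FPKM, Acta1 at 15.1 and 11.1 FPKM), 2 lower (Des and Ckm), and Pax7 and Myog at 0 in both libraries. Endothelial markers summed to 9.76 and 5.57 FPKM over 10 genes, with both that passed (Kdr and Tek) higher and Cldn5 at 0 in both. Macrophage markers summed to 11.4 FPKM in both over 10 genes, but the 2 that passed went apart, Cd68 higher (ratio 1.98, 1.41 to 2.82) and Lyz2 lower (0.648, 0.512 to 0.820). Platelet and erythroid markers summed to 1.74 and 1.80 FPKM over 10 genes, of which Ppbp, Gp9, Hba-a2 and Hbb-bt were at 0 in both. The part of these shifts in the differences of the oxidation genes was not tested.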

How the data were processed

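RNA-seq libraries of PRP-treated and vehicle-treated FAPs were compared, with 1 library per group. Per the labels, RNA was taken with TRIzol and libraries were made with a stranded mRNA kit. The submitters' processing notes name fastp 0.23.4, STAR 2.5.3a, featureCounts and mm10. The deposited values are FPKM per gene as the authors computed them. How FPKM was derived, the annotation release and the strand setting are not given in the sources used here.

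Genes were matched to GENCODE M21 (GRCm38) by identifier, 41492 of 44291 (93.7%). FPKM times the summed exon length gave whole reads in both libraries, within 0.001 reads, for 26406 of 28160 genes above 0 (93.8%). The read totals by which FPKM was scaled follow from this. They were taken as the reads assigned to genes, which was not tested. Low read numbers were mostly even (79.3% and 80.3% of genes with few reads), so reads were divided by 2 to give fragments. Ratio intervals are exact Clopper-Pearson 95% intervals of the PRP share of fragments, and level intervals are exact Poisson intervals. These describe counting error between 2 libraries, not the spread between cultures, and PCR duplicates are not accounted for. A minimum mean of 1 FPKM and a pseudocount of 1 were used. Genes with an identifier but no whole reads have no interval. Named are the 9 genes, the 3 genes of each list with the largest log2 fold change, any other past 1.5-fold, and paralogues or key enzymes by role. A few genes that this rule would name are not reported here. The members and lists were chosen with earlier results of these data known. Alternatives included a pseudocount of 0.1 or 5, a mean of 5 FPKM or no filter, rescaling to a common sum, with or without mitochondrial-genome genes and the 50 most abundant genes, centring, and a 1.5-fold threshold. Promoter windows came from RefSeq (GRCm38.p6), and those on chromosome 18 were left out. Windows of 50 bases were searched on both strands of all M21 transcripts. Python 3.11.15, NumPy 2.4.6, pandas 2.3.3, SciPy 1.17.1 and matplotlib 3.10.9 were used, and the procedures were tested on simulated data.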

Additional observations from a re-analysis of the deposited data

How the results depend on the processing

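The direction of each of the 9 genes and the absence of any 2-fold difference held in every alternative that tested them. The mean of at least 5 FPKM left 7 of the 9 genes, 6 of them lower. The log2 fold change of Pdk4 ran from 0.36 to 0.52, that of Acadvl from -0.58 to -0.42, that of Acadl from -0.05 to -0.02, and the median of the 9 genes from -0.25 to -0.13. Intervals on reads not divided by 2 left out 1 for 7 genes, and those after rescaling to a common sum for 6 genes, against 5. The count of all genes past 2-fold, 379, became 739 at a pseudocount of 0.1, 113 at a pseudocount of 5, 210 at a mean of at least 5 FPKM, and 1436 at 1.5-fold. A mean of at least 5 FPKM tests fewer genes, and the genes lower became 3 of 6 in the other mitochondrial list (median -0.02), 2 of 2 in the malonyl-CoA list (-0.31), 1 of 4 among the regulators, 1 of 4 among the PPAR targets (0.70) and 2 of 4 in the pyruvate dehydrogenase list (0.01). Without a filter, which tests more genes, 14 of 19 peroxisomal genes, 5 of 12 PPAR targets (median 0.02) and 5 of 6 ketone body genes were lower, and the malonyl-CoA median turned to 0.09. Among the regulators 5 were lower after either rescaling. The share of higher genes among those past 2-fold was 70.7%, and 63.7% to 74.3% at the other settings of the 2-fold threshold. No paired analysis was possible because there was 1 library per group. Depth limited Cpt2 and Hadhb most, with 311 to 450 reads each.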

Other observations

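Enzymes that make or use ketone bodies, the fuel derived from acetyl-CoA of fatty acid oxidation, were also mostly lower in the PRP library. Of 6 listed genes 4 passed the minimum level, with 3 lower, against 49.1% of all genes tested, and 1 higher. Their median log2 fold change was -0.15. Oxct1, which encodes the CoA transferase that lets cells use ketone bodies, had 63.6 FPKM with PRP against 90.4 FPKM in the control, from 9443 and 11416 reads (ratio 0.704, 0.677 to 0.732). Acat1, the thiolase shared by ketone body use and the breakdown of isoleucine, had 14.6 and 16.8 FPKM (ratio 0.868, 0.797 to 0.945).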
